A study of Mus musculus with 12 samples.

Results

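The unfolded protein response and integrated stress response genes described here are a list of 35 genes chosen by symbol: chaperones and disulfide isomerases of the endoplasmic reticulum (ER), the stress sensors and their transcription factors, components of ER-associated degradation, and targets of the integrated stress response with the phosphatase subunits that end it. Of the 35, 34 have a row among the 12339 genes of the count table, and Chac1 is not analysed here. They were followed in macrophages of mice that were wild type (WT) or carried a knockout named meKO, read from the series title as loss of Prkce (protein kinase C epsilon) in myeloid cells. Mice of either genotype were fed chow or a Western-type high-fat diet (HFD), which gave 4 groups of 3 libraries: WT chow and WT HFD, and meKO chow and meKO HFD.

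All mice, chow controls included, were injected at 8 weeks of age with AAV8PCSK9, a virus used to deplete the LDL receptor from the liver, so the chow groups are not untreated animals. Peritoneal macrophages were elicited with thioglycolate 4 weeks later and collected by lavage. The labels speak of 8 injected animals of each genotype with 4 of them on HFD, and do not name the recombinase line behind meKO or the sex of the animals. Nothing in the labels says how a library relates to an animal, so the p-values measure the spread between these libraries. As these are bulk samples, fewer cells of a type and less RNA per cell cannot be told apart.

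The ER folds secreted and membrane proteins, and 3 membrane sensors watch its load: IRE1 (gene Ern1), PERK (Eif2ak3) and ATF6. IRE1 splices Xbp1 messenger RNA into an active transcription factor, ATF6 is cut to release one, and PERK phosphorylates the translation factor eIF2alpha, which slows most translation while favouring that of Atf4. The integrated stress response is the branch that runs through eIF2alpha, and it is also reached from other kinases that sense amino acid lack, haem lack or double-stranded RNA. In macrophages these pathways are known to respond to lipid and cholesterol load. Counts per gene measure transcript amount only: Xbp1 splicing, sensor phosphorylation, ATF6 cleavage and Atf4 translation were not measured.

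Many of these genes are known for short DNA elements close to their start, and the elements are shown here because the pathway's transcription factors are known for binding them. RefSeq promoters (GRCm38.p6) were matched by symbol for 30 of the 35 genes; Hyou1, Manf, Atf6, Derl1 and Ppp1r15b had no entry. In the 250 bases before each start, both strands were searched for the ER stress response element, which is CCAAT, then any 9 bases, then CCACG. It was found in 8 of the 30 genes and in 0.113% of all 32851 mouse promoters searched. The 9 matches, read 5′ to 3′ on the strand that holds them with the fixed letters in capitals, were as follows.
Hspa5: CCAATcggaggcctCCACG
Calr: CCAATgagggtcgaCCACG
Hsp90b1, farther from the start: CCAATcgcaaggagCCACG
Hsp90b1, nearer to the start: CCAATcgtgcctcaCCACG
Canx: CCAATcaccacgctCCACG
Pdia6: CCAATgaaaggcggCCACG
Dnajc3: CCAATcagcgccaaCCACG
Creld2: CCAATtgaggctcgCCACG
Syvn1: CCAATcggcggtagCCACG

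A shorter form, ATTGG, 1 base and CCACG, which also ends in CCACG, was found only in Herpud1 among the 30 genes and in 0.0304% of all promoters. The UPR element, TGACG followed by TGG, was in 0 of the 30 and in 0.563% of all. The C/EBP-ATF response element bound by ATF4, TGATG, any base and AA, was in Asns, Nupr1, Herpud1 and Chac1, against 3.45% of all promoters. The 250 bases before the start of 6 genes that the results below turn on are printed with the matched element in capitals and the rest in lower case, in the direction of transcription. Hspa5, Pdia6 and Creld2 carry the ER stress response element (on the opposite strand in Creld2), and Asns and Nupr1 the C/EBP-ATF element (on the opposite strand in Nupr1). Ern1 is shown for comparison because it carried none of the 4.
Hspa5 (chr2:34771840-34772089, plus strand): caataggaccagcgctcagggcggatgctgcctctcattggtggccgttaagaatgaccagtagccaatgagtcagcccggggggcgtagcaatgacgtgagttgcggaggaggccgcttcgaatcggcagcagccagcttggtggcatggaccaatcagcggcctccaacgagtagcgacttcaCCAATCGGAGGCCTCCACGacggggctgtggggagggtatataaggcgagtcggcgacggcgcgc
Pdia6 (chr12:17266339-17266588, plus strand): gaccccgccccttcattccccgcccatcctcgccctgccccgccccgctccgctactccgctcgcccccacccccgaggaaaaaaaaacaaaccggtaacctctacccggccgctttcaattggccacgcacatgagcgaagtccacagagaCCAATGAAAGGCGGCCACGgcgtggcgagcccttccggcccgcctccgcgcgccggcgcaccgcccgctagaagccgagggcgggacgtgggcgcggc
Creld2 (chr15:88819396-88819645, plus strand): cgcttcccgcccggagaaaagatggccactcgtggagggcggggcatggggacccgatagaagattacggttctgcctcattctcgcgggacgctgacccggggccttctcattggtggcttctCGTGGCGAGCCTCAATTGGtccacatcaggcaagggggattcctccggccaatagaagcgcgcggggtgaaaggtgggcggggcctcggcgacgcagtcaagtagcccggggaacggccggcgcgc
Asns (chr6:7693210-7693459, minus strand): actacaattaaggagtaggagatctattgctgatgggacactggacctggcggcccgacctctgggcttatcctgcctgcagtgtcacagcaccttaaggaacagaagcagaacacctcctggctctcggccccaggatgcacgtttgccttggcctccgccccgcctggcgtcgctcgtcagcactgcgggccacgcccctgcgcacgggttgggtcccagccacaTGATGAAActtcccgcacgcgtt
Nupr1 (chr7:126625471-126625720, minus strand): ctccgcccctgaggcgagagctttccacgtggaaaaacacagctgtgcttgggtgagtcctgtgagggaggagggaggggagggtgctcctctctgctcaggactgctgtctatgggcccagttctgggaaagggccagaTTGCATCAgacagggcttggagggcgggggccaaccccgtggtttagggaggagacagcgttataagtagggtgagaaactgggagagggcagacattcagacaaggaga
Ern1 (chr11:106487797-106488046, minus strand): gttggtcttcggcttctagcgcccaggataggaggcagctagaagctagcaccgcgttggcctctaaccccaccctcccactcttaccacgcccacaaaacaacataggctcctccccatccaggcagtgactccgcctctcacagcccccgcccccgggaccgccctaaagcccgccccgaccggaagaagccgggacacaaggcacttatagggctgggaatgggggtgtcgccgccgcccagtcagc

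Total counts ran from 25844958 to 37282772 per library. Levels are given in CPM, read counts scaled to library size and composition (TMM). Every rise, fall or change below is a log2 fold change ± its standard error (HFD over chow, or meKO over WT), unless given as a fold or in CPM. All 7 macrophage markers listed, among them Adgre1, Csf1r and Cd68, were present in each library. Prkce was low, at 25 to 151 counts, and lay below every WT library in every meKO library, but its fall averaged over the diets was just short of the threshold (log2 fold change -1.13 ± 0.22, edgeR adjusted p = 0.0588). One library stood apart in Lyz2 (lysozyme M), meKO chow replicate 2 with 69.3 CPM. The other meKO libraries had 16290 to 21310 CPM, all below the WT libraries at 30480 to 53840 CPM. Without meKO chow replicate 2 the diet averaged over genotypes had 13 members called (27.4% of all genes) in place of 15 (30.2% of all genes). For WT the count was 9 in both cases (18.7% and 21.3% of all genes). WT chow replicates 1 and 2 also stood apart, in the longer transcripts, as described further below.

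The first question was what HFD changed. Averaged over both genotypes, HFD macrophages had more transcript of luminal chaperones and folding enzymes (Hspa5, Manf, Creld2, Dnajb11, Pdia6 and P4hb), of the factors Xbp1 and Ddit3, and of Asns, Nupr1 and Derl2. They had less of all 3 sensors, Ern1, Eif2ak3 and Atf6, and of Sel1l. Asns changed 2.11-fold and the other 14 less than 2-fold. By edgeR's quasi-likelihood test with Benjamini-Hochberg adjustment over all genes, called at an adjusted p under 0.05, 11 of the 34 members rose (32.4%, against 14.9% of all 12339 genes called higher) and 4 fell (11.8%, against 15.3% called lower). The median log2 fold change was 0.16 over the members and -0.03 over all genes.

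Within WT alone 6 of the 34 members rose on HFD (17.6%, with 9.5% of all genes called higher) and 3 fell (8.82%, with 11.8% called lower), and all 9 were also called when the genotypes were averaged. In 13 members (38.2%) every WT HFD library lay above every WT chow library, as it did for 19.4% of all genes. In 3 members (8.82%), Ern1, Eif2ak3 and Sel1l, every WT HFD library lay below, as for 19.9% of all genes. These WT counts rest on single libraries: the test without WT chow replicate 1, without WT chow replicate 2 or without WT HFD replicate 3 called 0 members and 129, 319 and 96 genes in all, and without WT HFD replicate 1 it called 1 member and 460 genes. Without WT chow replicate 3 it called 14 members (41.2%, 7 higher and 7 lower) and 39.9% of all genes, so the members' share was near that of all genes. With library totals as the scaling, the 9 calls split into 4 higher and 5 lower.

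Within meKO, 0 of the 34 members were called by edgeR (0.105% of all genes were called), with 8 at an unadjusted p under 0.05 (7 higher and 1 lower), as were 15.9% of all genes. DESeq2 called 1, Xbp1 (1.83% of all genes called), limma-voom 0, and voom with library quality weights 5 (14.7%, with 3.23% of all genes called). In 6 members, Asns, Ddit3, Dnajc3, Herpud1, Manf and Xbp1 (17.6%), every meKO HFD library lay above every meKO chow library, with 10.3% of all genes doing so. Atf6 alone (2.94%) lay wholly below, with 9.38% of all genes doing so.

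**Figure D1:**
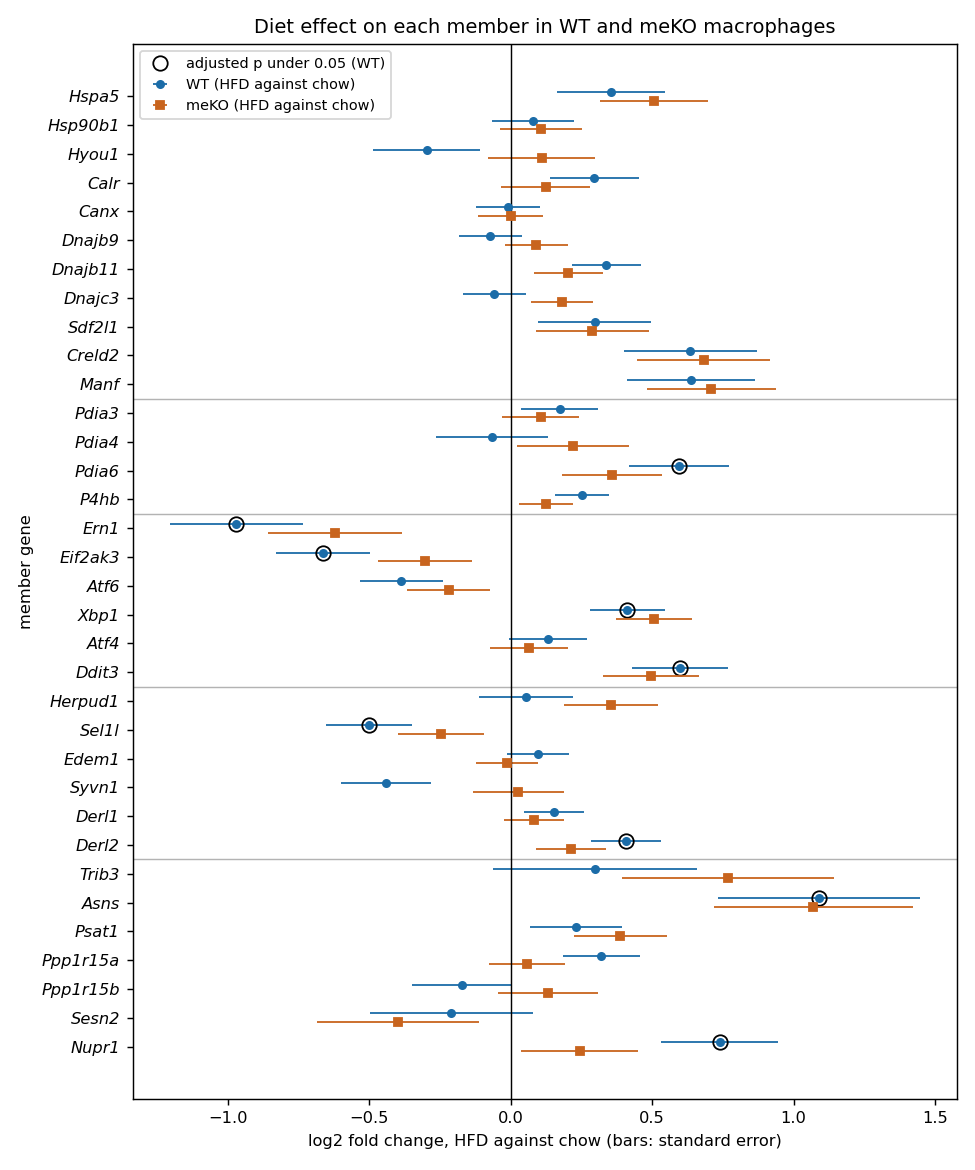
Log2 fold change of HFD against chow for the 34 members (rows, grouped by role) in WT (circles) and meKO (squares), with standard errors from edgeR; rings mark the 9 members called in WT. Most points of both genotypes lie right of 0 among chaperones and isomerases, and the 3 sensors lie left of 0.

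Among the 11 chaperones and co-chaperones, 4 rose on HFD averaged over genotypes and 0 fell, with a median log2 fold change of 0.21 over the 11. In the same comparison 14.9% of all genes were called higher and 15.3% lower. The role lists are small, so their counts here and below are descriptive. Hspa5 (BiP, GRP78; Entrez gene 14828, GRCm38 chr2:34772090-34776529), the Hsp70 of the ER lumen and the protein that holds the sensors inactive, stood at 705, 723 and 665 CPM in WT chow, at 789, 799 and 1086 in WT HFD, at 792, 848 and 706 in meKO chow, with 819.7, 995 and 1517 in meKO HFD. All 3 WT HFD libraries were above the WT chow libraries, whereas in meKO the lowest HFD library fell within the chow range, and replicate 3 was the highest on HFD in each genotype. The rise was 0.43 ± 0.14 on the log2 scale (edgeR adjusted p = 0.0302), and was 0.20 with an adjusted p of 0.158 without replicate 3 of both HFD groups. This call was kept in 13 of 22 alternative analyses. It was also lost with library totals and without single libraries, meKO HFD replicate 3 and WT chow replicate 1 among them.

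Manf, an ER-resident and secreted partner of Hspa5, stood at 55.5, 51.5 and 68.8 CPM in WT chow, at 71.8, 79.1 and 122 in WT HFD, at 68.7, 72.1 and 56.0 in meKO chow, with 76.1, 104 and 142 in meKO HFD. In both genotypes each HFD library was above each chow library. The log2 fold change was 0.64 ± 0.23 in WT and 0.71 ± 0.23 in meKO, neither of them called, and 0.67 ± 0.16 averaged (edgeR adjusted p = 0.0111). Manf has an exon that overlaps one of Rbm15b on the same strand, so some of its counts could belong to that gene. It also lies 0.457 Mb from Rpl29 on chromosome 9, a ribosomal protein gene at 6.50 to 6.89 CPM in the WT HFD libraries and at 67.2 CPM or more in the other 9; whether that difference bears on Manf was not tested.

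Creld2, an ER protein with disulfide isomerase activity, stood at 19.0, 20.7 and 24.0 CPM in WT chow, at 29.2, 28.0 and 41.6 in WT HFD, at 28.4, 29.4 and 22.4 in meKO chow, with 26.2, 46.5 and 56.3 in meKO HFD. WT HFD lay wholly above WT chow, while one meKO HFD library sat among the meKO chow values. Its log2 rise averaged 0.66 ± 0.17 (edgeR adjusted p = 0.0136). Dnajb11, an Hsp40 co-chaperone of Hspa5, averaged 118 ± 4.81 and 149 ± 19.1 CPM in WT and 139.5 ± 13.8 and 161 ± 19.2 CPM in meKO on chow and HFD (SD, n = 3). It rose by 0.27 ± 0.09 on the log2 scale averaged over genotypes (edgeR adjusted p = 0.0319).

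The other 7 members of this role were not called. Hsp90b1 (GRP94), the ER Hsp90 and the member with the highest mean CPM of its role, stood at 812, 868 and 826 CPM in WT chow, at 790.4, 842 and 1013 in WT HFD, at 944, 946 and 852 in meKO chow, with 791, 946 and 1215 in meKO HFD, so its groups overlapped. The lectin chaperones Calr and Canx, which bind sugar-bearing proteins, had log2 fold changes of 0.21 and -0.00, the Hsp40 co-chaperone Dnajb9 0.01, Dnajc3 (P58IPK, an Hsp40 that also restrains PERK) 0.06, Sdf2l1, a partner of ER Hsp40 proteins, 0.29, and Hyou1, the large nucleotide exchange factor for Hspa5, -0.09. Per length of transcript the 4 most abundant members over all libraries were Calr (360.9 CPM per kb), Hsp90b1 (320.0), Pdia3 (287.7) and Hspa5 (237.0).

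Among the 4 protein disulfide isomerases, which form and rearrange disulfide bonds, 2 rose and 0 fell. The shares of all genes were 14.9% and 15.3%. Pdia6, which also acts on the sensor IRE1, stood at 212, 244 and 251 CPM in WT chow, at 321, 328 and 421 in WT HFD, at 337, 331 and 248 in meKO chow, with 292, 403 and 478 in meKO HFD. The WT diets did not overlap, and meKO chow replicates 1 and 2 were as high as WT HFD replicates 1 and 2. The log2 rise was 0.60 ± 0.18 in WT (edgeR adjusted p = 0.0324) and 0.48 ± 0.12 averaged (adjusted p = 0.0153).

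P4hb, the prototype isomerase, averaged 496 ± 11.2 and 591 ± 10.1 CPM in WT and 574 ± 50.0 and 627 ± 38.5 CPM in meKO on chow and HFD (SD, n = 3). Its log2 rise of 0.19 ± 0.07 averaged over genotypes was the smallest among the called members (edgeR adjusted p = 0.0493). Pdia3 (ERp57), the partner of Calr and Canx, had the highest level of this role: 722, 680.4 and 738 CPM in WT chow, 708, 777 and 929 in WT HFD, 882, 785 and 746 in meKO chow, with 729, 843 and 1026 in meKO HFD. Its groups overlapped and it was not called (averaged log2 fold change 0.14), nor was Pdia4 (0.08). Pdia3 shares exon sequence with Catsper2 on the opposite strand and Hsp90b1 with 1810014B01Rik.

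**Figure D2:**
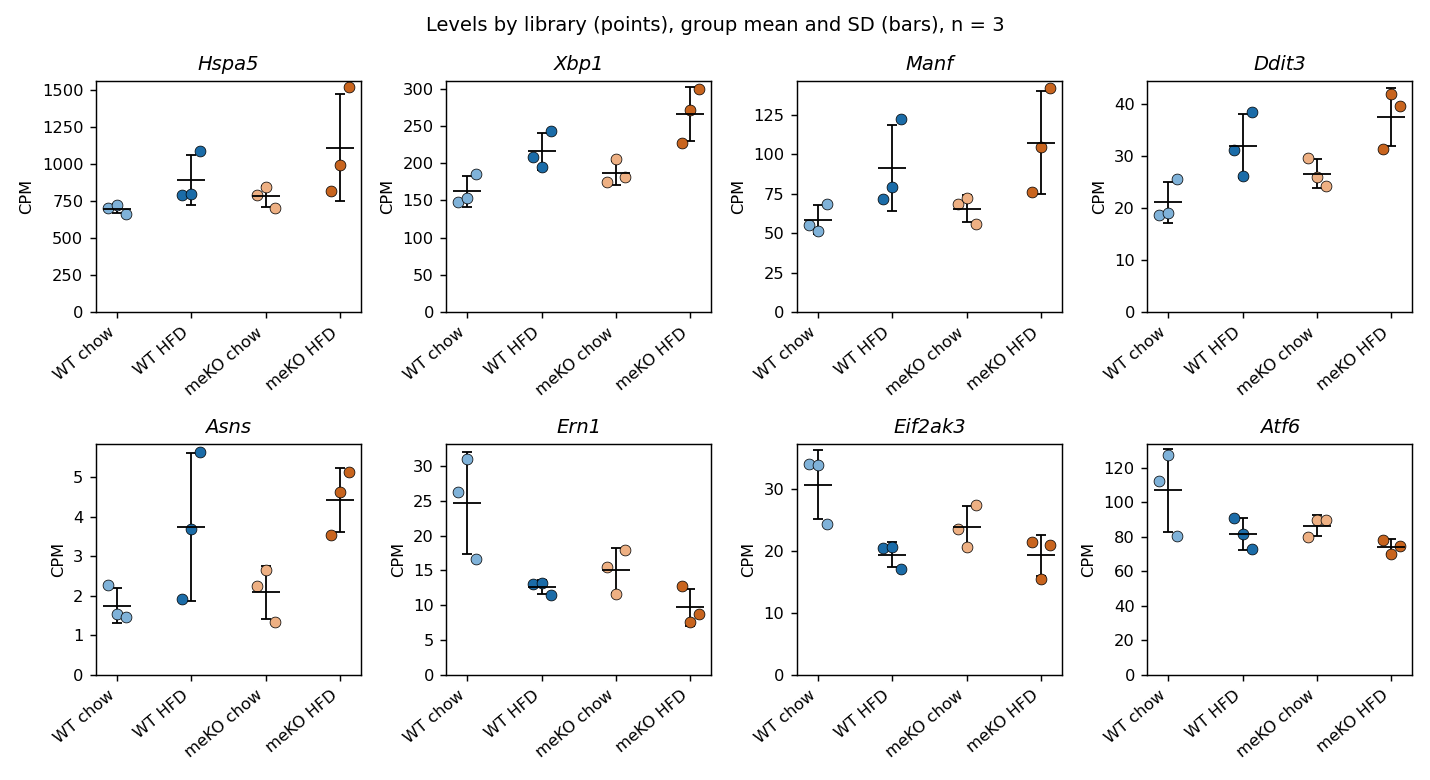
CPM (TMM-scaled, linear axes from 0) of 8 members in each library (points) with the group mean and SD (bars, n = 3). Hspa5, Xbp1, Manf, Ddit3 and Asns have higher means on HFD in both genotypes, and Ern1, Eif2ak3 and Atf6 lower ones; Hspa5 and Manf are highest in replicate 3 of each HFD group.

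All 3 sensors fell averaged over genotypes, with 15.3% of all genes called lower. Ern1 (GRCm38 chr11:106397620-106487796), the kinase and endoribonuclease IRE1alpha, stood at 26.2, 31.0 and 16.7 CPM in WT chow, at 13.1, 13.2 and 11.5 in WT HFD, at 15.6, 11.6 and 17.9 in meKO chow, with 12.8, 7.67 and 8.70 in meKO HFD. WT chow replicates 1 and 2 were the highest of the 12 libraries, every WT HFD library lay below WT chow, and meKO HFD replicate 1 lay within the meKO chow range. The log2 fold change was -0.97 ± 0.23 in WT (edgeR adjusted p = 0.0193), -0.62 ± 0.24 in meKO (0.265) and -0.79 ± 0.17 averaged (adjusted p = 0.00785).

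Eif2ak3 (PERK; GRCm38 chr6:70844484-70905241), the eIF2alpha kinase of the ER, stood at 33.9, 33.8 and 24.3 CPM in WT chow, at 20.5, 20.6 and 17.1 in WT HFD, at 23.6, 20.6 and 27.3 in meKO chow, with 21.4, 15.5 and 20.9 in meKO HFD. The WT diets did not overlap and the meKO diets did. Its log2 fold change was -0.66 ± 0.17 in WT (edgeR adjusted p = 0.0213) and -0.48 ± 0.12 averaged (adjusted p = 0.0120). Atf6, whose cut product activates chaperone genes, averaged 107 ± 24.0 and 81.8 ± 9.09 CPM in WT and 86.5 ± 5.87 and 74.3 ± 4.18 CPM in meKO on chow and HFD (SD, n = 3). On the log2 scale it fell by 0.30 ± 0.10 averaged (edgeR adjusted p = 0.0425), and this call was kept in 10 of 22 alternative analyses.

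Of the transcription factors, Xbp1 (GRCm38 chr11:5520641-5525993), the target of IRE1 splicing, had the smallest p of all members and also the highest mean CPM of the sensors and factors. It stood at 147, 154 and 186 CPM in WT chow, at 209, 195 and 244 in WT HFD, at 174, 206 and 181 in meKO chow, with 227, 271 and 299 in meKO HFD. In each genotype the HFD libraries were all above the chow libraries. The log2 fold change was 0.41 ± 0.13 in WT (edgeR adjusted p = 0.0431), 0.51 ± 0.13 in meKO (0.145) and 0.46 ± 0.09 averaged (adjusted p = 0.00725).

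Ddit3 (CHOP), the stress-induced C/EBP-family factor known for its part in cell death, stood at 18.6, 19.1 and 25.6 CPM in WT chow, at 31.2, 26.3 and 38.4 in WT HFD, at 29.7, 25.9 and 24.2 in meKO chow, with 31.3, 41.9 and 39.6 in meKO HFD. The diets did not overlap in either genotype. Its log2 rise was 0.60 ± 0.17 in WT (edgeR adjusted p = 0.0288) and 0.55 ± 0.12 averaged (adjusted p = 0.00886); an exon of Mars overlaps it on the opposite strand. Atf4, the central factor of the integrated stress response, was not called, with means of 62.0 ± 6.92 and 67.9 ± 4.50 CPM in WT and 71.8 ± 9.48 and 75.1 ± 12.1 CPM in meKO on chow and HFD (SD, n = 3).

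In ER-associated degradation, which pulls misfolded proteins back out of the ER for the proteasome, 1 of 6 members rose and 1 fell. This was near the 14.9% of all genes called higher and the 15.3% called lower. Derl2, a derlin of the retrotranslocation channel, stood at 66.5, 73.7 and 88.7 CPM in WT chow, at 99.3, 93.6 and 111 in WT HFD, at 90.8, 97.2 and 84.9 in meKO chow, with 94.4, 116 and 106 in meKO HFD. WT HFD lay above WT chow and the meKO diets overlapped. On the log2 scale Derl2 rose by 0.41 ± 0.12 in WT (edgeR adjusted p = 0.0360) and 0.31 ± 0.09 averaged (adjusted p = 0.0205); an exon of Mis12 overlaps it on the opposite strand.

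Sel1l, the adaptor of the ubiquitin ligase Syvn1 (HRD1), went the other way: 184, 186 and 129 CPM in WT chow, 118, 128 and 108 in WT HFD, 144, 129 and 149.8 in meKO chow, with 126, 97.2 and 133 in meKO HFD. WT HFD lay wholly below WT chow, with WT chow replicates 1 and 2 again the highest. On the log2 scale Sel1l fell by 0.50 ± 0.15 in WT (edgeR adjusted p = 0.0354) and by 0.37 ± 0.11 averaged (adjusted p = 0.0218).

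Syvn1 itself, which shares exon sequence with Mrpl49 on the opposite strand, had log2 fold changes of -0.44 in WT and 0.03 in meKO, neither called. Edem1, a lectin-like factor that picks glycoproteins for degradation, had the highest level of this role, at 208, 237 and 188 CPM in WT chow, 238, 234 and 206 in WT HFD, 221, 227 and 208 in meKO chow, with 234, 207 and 210.0 in meKO HFD, with all groups overlapping. Herpud1, a membrane scaffold of the degradation complex, and Derl1 had averaged log2 fold changes of 0.20 and 0.12 and were not called.

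Of the 7 integrated stress response targets and phosphatase subunits, 2 rose and 0 fell, against 14.9% and 15.3% of all genes. Asns, which makes asparagine and is a classical ATF4 target, had the largest change of the 34 members and few counts, 39 to 187 per library. It stood at 2.26, 1.53 and 1.45 CPM in WT chow, at 1.91, 3.68 and 5.62 in WT HFD, at 2.25, 2.66 and 1.35 in meKO chow, with 3.52, 4.62 and 5.12 in meKO HFD. Only the meKO diets were free of overlap, since WT HFD replicate 1 lay within WT chow. The log2 fold change was 1.09 ± 0.36 in WT (edgeR adjusted p = 0.0451), 1.07 ± 0.35 in meKO (0.217) and 1.08 ± 0.25 averaged (adjusted p = 0.0101). The WT call was kept in 9 of 23 alternative analyses and the averaged call in 20 of 22.

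Nupr1, a small stress-induced nuclear protein, stood at 10.9, 14.5 and 19.4 CPM in WT chow, at 23.5, 21.6 and 29.6 in WT HFD, at 24.6, 16.6 and 16.6 in meKO chow, with 23.9, 23.5 and 21.0 in meKO HFD. WT HFD was above WT chow, whereas the highest meKO value was a chow library. The log2 fold change was 0.74 ± 0.21 in WT (edgeR adjusted p = 0.0280), 0.24 ± 0.21 in meKO (0.555) and 0.49 ± 0.15 averaged (adjusted p = 0.0247). The difference between the genotypes in the size of this rise was not called (interaction -0.49, edgeR adjusted p = 0.803).

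The serine synthesis enzyme Psat1 came close, at 0.31 averaged with an edgeR adjusted p of 0.0568. Trib3, a pseudokinase induced by ATF4 and Ddit3, had 16 to 59 counts per library and 0.53 ± 0.26 averaged (edgeR adjusted p = 0.129). Sesn2, a sestrin that restrains mTORC1, had -0.30 (adjusted p = 0.265). The phosphatase subunit Ppp1r15a (GADD34), which closes the response by removing phosphate from eIF2alpha, had 0.19 (adjusted p = 0.141). Its constitutive counterpart Ppp1r15b (CReP), with the highest level of this role, stood at 89.2, 98.4 and 55.4 CPM in WT chow, 75.5, 71.3 and 68.9 in WT HFD, 56.0, 62.4 and 50.7 in meKO chow, with 70.3, 61.3 and 53.9 in meKO HFD, and the diets overlapped in both genotypes.

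**Figure D3:**
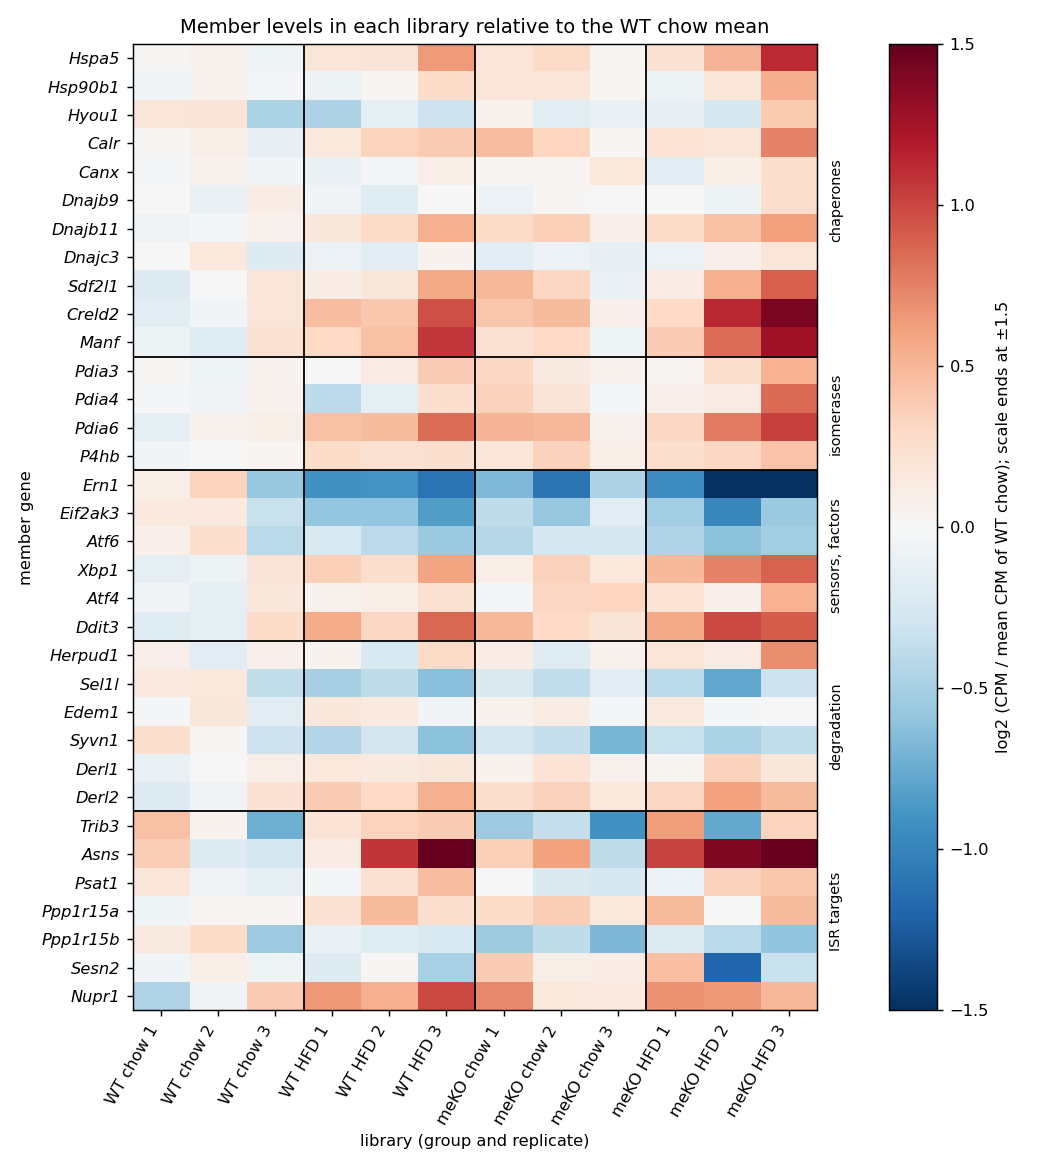
Level of each of the 34 members (rows, grouped by role) in each of the 12 libraries (columns), as log2 of CPM over the mean CPM of WT chow; red is higher and blue lower, and colours end at ±1.5. The rightmost column, meKO HFD replicate 3, is the highest library for 18 members, and Ern1, Eif2ak3 and Atf6 are blue across the HFD columns.

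Variation between libraries of a group was shared across the folding genes. MeKO HFD replicate 3 was the highest of the 12 libraries for 18 of the 34 members, and it held the median chaperone at 0.34 above its own group mean on the log2 scale. WT HFD replicate 3 held it at 0.19 above, and WT chow replicate 1 was the lowest library for 11 members. Without meKO HFD replicate 3 the averaged test called 11 members (32.4%, with 22.2% of all genes called). Without WT HFD replicate 3 it called 8 (23.5%, with 15.9% of all genes called). Over all 12 libraries it called 30.2% of all genes. Without both (the third replicate of each HFD group), an analysis chosen after seeing the data, it called 0 members and 569 genes in all, with a log2 fold change of 0.36 for Xbp1, 0.41 for Manf and -0.73 for Ern1. What set these libraries apart was not tested.

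Element carriers did not all move. Of the 8 members with the ER stress response element, Hspa5, Pdia6 and Creld2 rose on HFD averaged over genotypes and 0 fell. Among all genes 14.9% were called higher and 15.3% lower. The median log2 fold change over the 8 was 0.15, near the 0.16 of all members. Of the 3 members with a row that carry the C/EBP-ATF element, Asns and Nupr1 rose and Herpud1 was not called (0.20). The other 8 members that passed higher or lower among genes with a promoter entry, Ern1 among them, carried none of the 4 elements in this window.

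The calls were ordered by transcript length. The 11 members that rose have transcripts of 829 to 3672 bases (median 2175) and the 4 that fell have 4513 to 7246 bases (median 6623). Spearman's rho of the averaged diet effect with transcript length was -0.77 across the 34 members and -0.51 across 12043 genes, a description over genes of the same 12 libraries. The libraries themselves differed in this way: rho between a library's deviation and length was 0.63 and 0.67 in WT chow replicates 1 and 2 and between -0.46 and 0.14 in the other 10.

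With each library's counts corrected for length and GC content, rho fell to -0.06 across all genes and -0.40 across the members. The averaged test then called 14 members (41.2%, with 22.4% of all genes called). Of these, 12 were higher (85.7% of the calls in place of 73.3%) and 2 lower. Ern1 (-0.54, edgeR adjusted p = 0.00746) and Eif2ak3 (-0.30, adjusted p = 0.0171) still passed. Atf6 (-0.11, adjusted p = 0.228), Sel1l (-0.18, adjusted p = 0.0833) and Nupr1 (0.20, adjusted p = 0.201) did not, while Edem1 (0.20, adjusted p = 0.0176) and Ppp1r15a (0.28, adjusted p = 0.0228) came to pass. The rise of Ddit3, the second shortest of the called members, was 0.25 in place of 0.55. In WT alone the corrected test called 7 members (20.6%, with 12.3% of all genes called). Among the members called in WT before, Pdia6, Ern1, Eif2ak3 and Derl2 still passed. Xbp1 (edgeR adjusted p = 0.051), Ddit3 (0.126), Sel1l (0.257), Asns (0.0908) and Nupr1 (0.127) did not. P4hb, Edem1 and Ppp1r15a came to pass in WT. Leaving out WT chow replicates 1 and 2 together, an analysis also chosen after seeing the data, left WT chow with replicate 3 alone. The WT part of the diet effect then rests on that chow library, so only the size of the effects is given. With these 10 libraries the averaged log2 fold change was 0.46 for Hspa5, 0.57 for Creld2 and 1.21 for Asns, near the values over 12 libraries. It was 0.36 for Xbp1, -0.51 for Ern1, -0.32 for Eif2ak3 and -0.10 for Atf6, smaller in size than over 12 libraries.

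**Figure D4:**
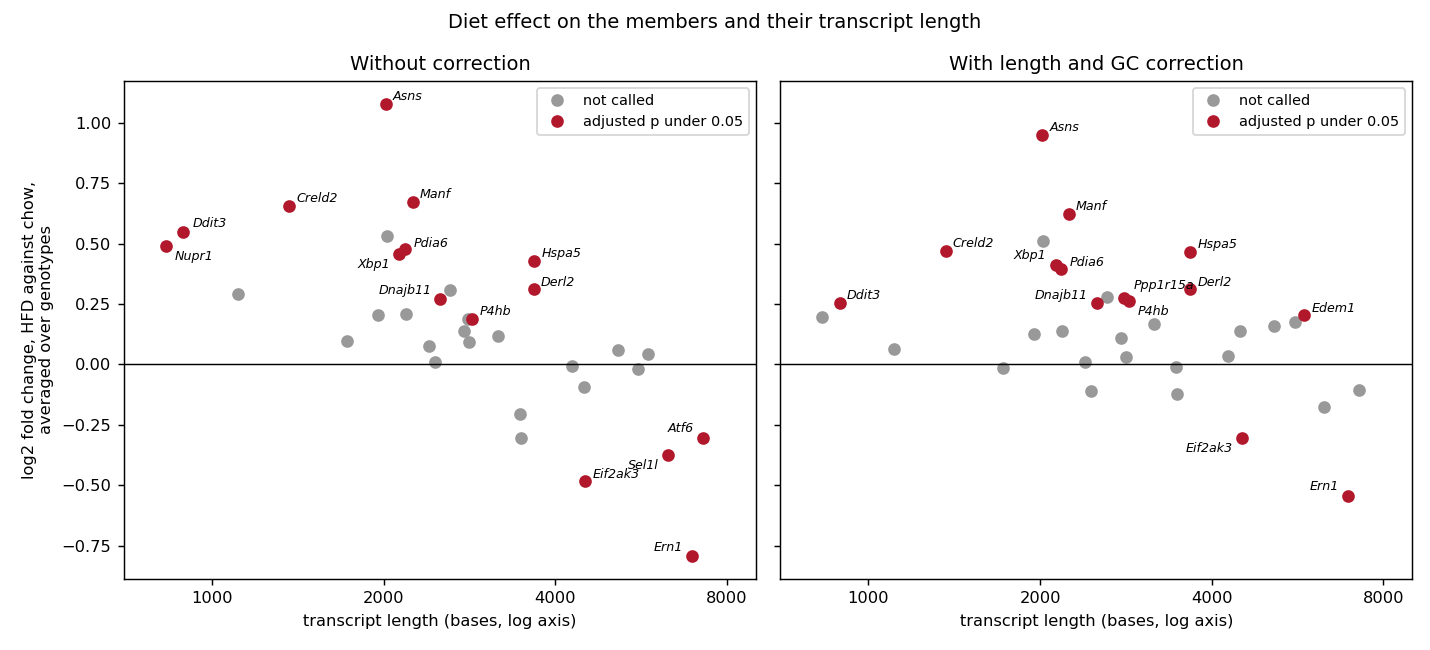
Log2 fold change of HFD against chow averaged over genotypes (vertical axis) against transcript length (horizontal log axis, bases) for the 34 members, without (left) and with (right) correction for length and GC content; red points are called. The 4 members that fell have transcripts of 4513 bases or longer on the left, and Ern1 and Eif2ak3 stay below 0 and called on the right.

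The second question was what loss of Prkce changed. No member was called between genotypes by edgeR: 0 of 34 on chow (0.081% of all genes called), 0 on HFD (0.081%) and 0 averaged over the diets (0.17%). At an unadjusted p under 0.05 there were 5 members on chow (1 higher, 4 lower in meKO), 2 on HFD (both higher) and 7 averaged (5 higher, 2 lower), against 19.8%, 4.56% and 17.7% of all genes. DESeq2 and limma-voom also called 0 in each, while voom with library quality weights called 11 (32.4%, with 32.8% of all genes called), 2 (5.88%, with 1.04%) and 19 (55.9%, with 31.1%). The smallest adjusted p values were those of Ern1 on chow (log2 fold change -0.72 ± 0.23, edgeR adjusted p = 0.138) and averaged (-0.54 ± 0.17, adjusted p = 0.166). On chow the count was 8 (23.5%, with 20.6% of all genes called) without WT chow replicate 3, the WT chow library nearest to the meKO values for Ern1, Eif2ak3 and Ppp1r15b.

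The third question was whether the diet effect differed between genotypes. The interaction was called for 0 of 34 members by edgeR (0.0162% of all genes), with 0 at an unadjusted p under 0.05, and 0 by DESeq2 and by both voom fits. Interaction estimates ran from -0.49 (Nupr1) to 0.47 (Trib3) on the log2 scale, and the smallest edgeR adjusted p was 0.797 (Syvn1). Measured in separate libraries, the diet effect had the same sign in both genotypes in 27 of 34 members (79.4%), as for 76.4% of all genes. The 7 of opposite sign were Dnajb9, Dnajc3, Edem1, Hyou1, Pdia4, Ppp1r15b and Syvn1, none of them called in either genotype.

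Of 109 further genes of these pathways in 6 lists, 27 rose (24.8%, with 14.9% of all genes called higher) and 10 fell (9.17%, with 15.3% called lower) on HFD averaged over genotypes, and 0 were called in meKO alone. The lists are small, and the shares that rose among other folding, degradation and transducer genes lay near or below that of all genes. The averaged diet effect followed transcript length across all genes (Spearman's rho -0.51), and values corrected for length are not given for these lists. The part of transcript length in their counts was not tested. The translocon and glycosylation list, the machinery that brings proteins into the ER, had 10 of 23 higher and 1 lower. In WT its largest rises were in the channel subunits Sec61g (from 1.19 ± 0.425 to 2.39 ± 0.450 CPM, SD, n = 3) and Sec61b (log2 fold change 0.72) and the translocon-associated Ssr4 (0.73), and Sec63, which couples the channel to Hspa5, fell by 0.58. Other folding enzymes had 4 of 21 higher and 1 lower, with the prolyl isomerases Ppib (0.64) and Fkbp2 (0.63) and the ER protein Erp29 (0.46) up and the glucosidase subunit Ganab down (-0.58) in WT.

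The eIF2 kinases and eIF2 apparatus had 4 of 12 higher and 3 lower. In WT the eIF2alpha gene Eif2s1 rose by 0.61 and the exchange factor subunit Eif2b5 by 0.28, and Eif2ak2 (PKR), the kinase that senses double-stranded RNA, fell by 0.47. Other ATF4 targets and partners had 4 of 17 higher and 2 lower averaged over genotypes, the 2 lower being Atf5 (-0.52) and Pck2 (-0.33). In WT 3 were called higher and 0 lower. They were the factor Cebpb (0.75), the folate enzyme Mthfd2 (0.73) and the amino acid transporter subunit Slc3a2 (0.38). Other degradation genes had 2 of 20 higher and 1 lower, with Ube2g2, a ubiquitin-conjugating enzyme, at 0.32 and the ligase Marchf6 at -0.55 in WT. Further stress transducers had 3 of 16 higher and 2 lower; in WT the ER-bound factor Creb3 rose by 0.58 and the BH3-only gene Pmaip1 by 0.55, while the ER membrane proteins Wfs1 (wolframin) and Tmbim6 (BAX inhibitor 1) fell by 0.76 and 0.50.

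Some markers of macrophages and of other cells in the lavage moved with the diet as well. In the averaged comparison 14.9% of all genes were called higher and 15.3% lower. Of the 7 macrophage markers, 4 were called lower and 1 higher on HFD averaged over genotypes. Of 6 neutrophil markers 3 were called lower and 2 higher, with a summed level of 143 to 163 CPM in WT chow, 99.4 to 105 in WT HFD, 144 to 171 in meKO chow, with 124 to 134 in meKO HFD. All 6 B cell markers with a row fell on HFD averaged over genotypes, with a summed level of 110 to 168 CPM in WT chow, 53.3 to 88.7 in WT HFD, 76.2 to 163 in meKO chow, with 56.4 to 113 in meKO HFD. Of 5 plasma cell markers, a cell type known for a large ER, 2 fell and 0 rose, and the summed level was 58.5 to 71.6 CPM in WT chow, 37.2 to 49.6 in WT HFD, and 43.2 to 64.3 against 36.9 to 49.6 in meKO, where the diets overlapped. Of 9 mesothelial and fibroblast markers 4 rose, from a sum of 51.0 to 91.8 CPM in WT chow to 93.5 to 139 in WT HFD, and from 50.5 to 96.5 to 112 to 140 in meKO. Mast cells (7 markers), eosinophils (2) and erythroid cells (3) had 0 called in either direction. T and NK cells had 1 of 7 lower and dendritic cells 1 of 6 lower, with 0 higher. Resident large peritoneal macrophages had 1 of 6 higher and 1 lower. No marker with a row was at 0 in any library, and the part of these cells in the members' changes was not tested.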

How the data were processed

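RNA from thioglycolate-elicited peritoneal macrophages was extracted with Trizol and made into TruSeq libraries, per the labels. The authors deposited whole-number counts per gene and library for 12339 genes. DESeq2 and the mouse build mm10 are named in the submitters' processing notes; the aligner, the counting tool and the strand setting are not given in the sources used here, so reads of overlapping genes cannot be assigned.

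Groups came from the sample titles, and replicate numbers follow accession order and pair nothing. Replicates differed by more than sampling noise (chi-square per degree of freedom of at least 16.9). Counts of all genes were fitted with edgeR 4.0.16 in R 4.3.3 (TMM, filterByExpr, which kept all 12339 genes, robust quasi-likelihood F test, 4 group means over all 12 libraries, two-sided). The p-values were adjusted by Benjamini-Hochberg over all genes and called under 0.05. The standard error of a log2 fold change is its size over the square root of F. DESeq2 1.42.0, limma 3.58.1 (voom, without and with library quality weights), other scalings and filters, left-out libraries and a loess correction (span 0.5, degree 1) for length and GC content were alternatives. Transcript lengths were those of the longest coding transcript in the GRCm38 annotation and were found for 97.6% of genes. The test script was tested on simulated data.

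Values in every library are given for the 12 called members with the smallest p and for the member with the highest mean CPM of each role. From the other lists, up to 3 called genes rising and 3 falling most in WT are named. Atf5 and Pck2, called lower averaged over genotypes, are named in addition. The members, lists and tests were chosen with earlier results of these data known.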

Additional observations from a re-analysis of the deposited data

How the results depend on the processing

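No called member changed sign in the diet comparisons (in WT or averaged) under the 21 planned and 2 added alternatives run. Members that were not called did: the averaged effect changed sign under length and GC correction in Hyou1, Canx, Dnajb9, Atf4 and Ppp1r15b, and with library totals in Dnajb9, Dnajc3 and Edem1. With library totals the 9 WT calls turned from 6 higher and 3 lower to 4 higher and 5 lower. The count of members called for diet in WT (9) was 14 with DESeq2 (41.2%, with 27.9% of all genes called). It was 18 with voom with library quality weights (52.9%, with 52.0% of all genes called). In the added analysis that leaves out replicate 3 of both HFD groups it was 0 (0.316% of all genes called). When single libraries were left out it was 0 to 14, with 0.778% to 39.9% of all genes called. For diet in meKO (0) it was 1 with DESeq2 (1.83% of all genes called) and 5 with voom with library quality weights (3.23%). With single libraries left out it was 0 to 1, the 1 being Creld2 without meKO HFD replicate 1 (1.09% of all genes called). For genotype on chow (0) it was 11 with voom with library quality weights (32.8% of all genes called). With single libraries left out it was 0 to 8, the 8 with 20.6% of all genes called. For genotype on HFD (0) it was 2 with voom with library quality weights (1.04% of all genes called). For genotype averaged over diets (0) it was 19 with voom with library quality weights (31.1% of all genes called). With single libraries left out it was 0 to 5, the 5 without WT chow replicate 3 (14.7%, with 11.3% of all genes called). For diet averaged over genotypes (15, with 30.2% of all genes called) it was 0 without replicate 3 of both HFD groups (4.61% of all genes called). With single libraries left out it was 8 to 18, the 18 without meKO HFD replicate 1 (35.8% of all genes called). It was 8 without WT chow replicate 1, WT chow replicate 2, WT HFD replicate 3 or meKO chow replicate 3, with 15.9% to 18% of all genes called. The second added analysis, without WT chow replicates 1 and 2 together, left WT chow with replicate 3 alone. Xbp1, Ern1, Ddit3, Asns, Manf, Eif2ak3, Creld2 and Pdia6 passed in the averaged test in 20 of 22 alternatives. These members were lost without replicate 3 of both HFD groups. Derl2 passed in 16, Sel1l and Nupr1 in 14, Hspa5 and Dnajb11 in 13, and P4hb and Atf6 in 10. The Prkce log2 fold change averaged over diets (-1.13, edgeR adjusted p = 0.0588) was -1.13 with DESeq2 and -1.21 with voom with library quality weights, which both called it, and -1.25 to -1.03 with single libraries left out. The cause of these differences was not tested. No paired analysis was possible because the labels give no replicate numbers. Asns and Trib3 had the fewest counts, but in WT HFD the SD of Asns over libraries was 1.86 CPM on a mean of 3.74; 6 members share exon sequence with another gene that has a row.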
